A study of Mus musculus with 4 samples.

Results

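Conjugation, the phase II step of drug and steroid metabolism, was examined in the livers of alcohol-fed mice with and without Brg1 in hepatocytes. The genes were chosen by name from the deposited table of FPKM values (fragments scaled to transcript length and library size). They are the UDP-glucuronosyltransferases (Ugt1a, Ugt2 and Ugt3 genes), the sulfotransferases (Sult genes), the glutathione S-transferases (Gst genes of the alpha, kappa, mu, omega, pi, theta and zeta classes) and the microsomal glutathione S-transferases (Mgst genes). Of 22103 entries in the table, 62 carried such a symbol, and 58 of these had a value above 0 in at least 1 liver. The remaining 4, Sult1c1, Sult2a3, Sult2a5 and Sult3a1, were listed at 0 in all 4 livers. The 58 comprised 20 UGT, 14 SULT, 21 GST and 3 MGST genes.

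RNA of whole liver was sequenced from 2 WT mice and 2 Brg1LKO mice. The Brg1LKO mice carried floxed Smarca4, the gene of the chromatin remodeler Brg1, together with Cre recombinase under the albumin promoter, so that the deletion falls in hepatocytes while other liver cells keep the gene. According to the study the WT mice were littermates. The mice were males, 8 weeks old when alcoholic liver injury was induced. All 4 had been through the NIAAA procedure, an ethanol liquid diet ended by a single ethanol gavage, and the labels give 15 days of alcohol. No liver without alcohol is among the samples, so every value below is a comparison of genotypes under alcohol. The labels name each library as a sample of its own. The p-values measure the spread between these samples.

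Phase II enzymes attach a polar group to a drug, hormone or metabolite and so make it easier to excrete. UGTs take the sugar from UDP-glucuronic acid, SULTs take sulfate from PAPS, and GSTs join glutathione to electrophiles, among them the lipid aldehydes that form during oxidative stress. A small part of ingested ethanol itself leaves the body as ethyl glucuronide and ethyl sulfate. The hepatocyte holds most of these enzymes in the liver, and many of their genes are targets of the xenobiotic and stress sensors NRF2, CAR, PXR and AHR.

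The 4 promoters below are shown for the genes on which the results turn. Gstp1 and Gstp2 are neighboring GST genes whose values were below WT in both Brg1LKO livers, and Ugt1a1 and Ugt1a9 are the entries of the Ugt1a locus whose own first exons are compared. Each sequence is the 250 bases before the gene's start in RefSeq (GRCm38.p6), written 5′ to 3′ on the gene's own strand. Offsets are counted from that start. The Gstp1 and Gstp2 entries with FPKM values start further upstream, at 4037985 and 4042263, so the last of the printed bases lie inside these entries. Capitals mark the AP-1 site in the Gstp promoters and the core of the HNF1 site in the Ugt1a promoters.
Gstp1, chr19:4037913-4038162, minus strand: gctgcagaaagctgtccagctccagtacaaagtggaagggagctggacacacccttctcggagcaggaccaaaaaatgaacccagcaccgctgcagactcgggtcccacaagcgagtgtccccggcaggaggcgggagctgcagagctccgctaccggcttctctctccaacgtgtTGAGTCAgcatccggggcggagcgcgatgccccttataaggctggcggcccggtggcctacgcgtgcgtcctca
Gstp2, chr19:4042222-4042471, minus strand: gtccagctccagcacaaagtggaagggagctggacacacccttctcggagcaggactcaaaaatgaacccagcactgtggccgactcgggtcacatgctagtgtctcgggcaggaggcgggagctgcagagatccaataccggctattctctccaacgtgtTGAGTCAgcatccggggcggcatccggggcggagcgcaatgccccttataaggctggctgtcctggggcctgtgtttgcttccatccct
Ugt1a1, chr1:88211709-88211958, plus strand: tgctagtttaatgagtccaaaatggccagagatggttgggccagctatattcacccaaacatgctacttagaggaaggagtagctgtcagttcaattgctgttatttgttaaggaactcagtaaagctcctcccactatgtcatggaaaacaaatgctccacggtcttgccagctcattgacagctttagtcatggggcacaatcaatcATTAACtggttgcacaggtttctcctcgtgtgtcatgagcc
Ugt1a9, chr1:88070529-88070778, plus strand: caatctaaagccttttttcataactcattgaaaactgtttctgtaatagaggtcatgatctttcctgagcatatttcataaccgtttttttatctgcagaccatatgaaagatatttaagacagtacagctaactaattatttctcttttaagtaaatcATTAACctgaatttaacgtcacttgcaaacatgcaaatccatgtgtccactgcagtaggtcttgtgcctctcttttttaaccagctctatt

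The Gstp1 and Gstp2 promoters were close copies, with 207 identical bases of 265 aligned (78.11%), and both held the AP-1 site TGAGTCA, at -74 and -89 from the start. The Ugt1a1 and Ugt1a9 promoters had 41.31% of aligned bases in common. Both held ATTAAC, the core of the HNF1 site read on the opposite strand, at -41 and -91. RefSeq gave 61 promoter windows, from 250 bases before to 50 after the start, for 50 of the 58 genes. Both strands were searched. AP-1 (TGANTCA) stood in 18.03% of these windows against 7.808% of all 32851 windows, and the HNF1 core (GTTAAT) in 18.03% against 7.099%. The antioxidant response element (TGACNNNGC), the letters NRF2 is known to bind, stood in 6.557% against 12.39%, and the 4 genes with it were Gsta3, Gstm5, Gstm7 and Mgst1. The xenobiotic response element of AHR (TNGCGTG) stood in 4.918% against 5.065%, and a TATA box (TATAAA) in 14.75% against 13.62%. These matches are a description of letters and show no binding.

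As a check of the labels, Smarca4 was at 1.78 and 1.95 FPKM in WT and at 0.608 and 0.579 FPKM in the Brg1LKO livers, 31.8% of the WT mean (log2 fold change -1.50 ± 0.34 (SE), adjusted p = 1.0 by limma). Its unadjusted p was 0.000548. Depth was read from the steps in low FPKM values. It came to 72598400 to 80936400 reads per library, and the read number of a given gene is an estimate. Of the 12346 genes whose mean reached 0.1 FPKM, 121 (0.98%) differed at an unadjusted p under 0.05 with a change over 2-fold, 67 lower (0.543%) and 54 higher (0.437%) in the Brg1LKO livers. More were higher than lower with a pseudocount of 1 (12 and 6), with a minimum mean of 1 FPKM (38 and 30), without WT replicate 2 (51 and 27) and without Brg1LKO replicate 1 (402 and 150). Of all genes tested, 0 had an adjusted p under 0.05 and 247 (2.0%) an unadjusted p under 0.05. With 2 livers against 2, permutation of the livers can give no p below 0.333, and limma reaches lower values by borrowing the spread of other genes. Hepatocyte markers such as Alb and Ttr were present in all livers, and 0 of the 12 markers passed the threshold (median log2 fold change 0.13). All 11 macrophage markers were detected, with a summed level of 48.8 to 49.9 FPKM in WT and 63.2 to 139 FPKM in the Brg1LKO livers. By direction alone all 11 were higher (median log2 fold change 0.84), and 3 of them (Cd68, Vsig4 and Cd5l) passed the threshold. Both Brg1LKO livers were above both WT livers for 9 of the 11, against 10.7% of all genes tested. Of the sinusoidal endothelial, stellate, cholangiocyte and neutrophil markers tested 0 passed. By direction alone all 10 sinusoidal endothelial markers were lower (median log2 fold change -0.23). Lower were also 5 of 6 cholangiocyte, 5 of 9 stellate and 2 of 5 neutrophil markers. Of 5 erythroid markers 1 (Hbb-bs) was higher past the threshold. Their summed level was 21.9 to 40.4 FPKM in WT and 26.8 to 181 FPKM in Brg1LKO livers. In whole liver, fewer cells of a type and less RNA per cell cannot be told apart.

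No phase II gene differed between Brg1LKO and WT livers at that threshold. Of the 47 whose mean reached 0.1 FPKM, 0 passed it, against 0.98% of all genes tested, and 0 had an unadjusted p under 0.05. The lowest p of any member was 0.0709. On the log2 scale of FPKM + 0.1, which understates the change of low genes, the log2 fold changes ran from -0.65 for Gstp2 to 1.22 for Sult1e1, with standard errors of 0.32 to 0.68. A log2 fold change of 0.5 or more in either direction was seen for 3 of the 47, Gstp1, Gstp2 and Sult1e1, and for 9.79% of all genes tested. By direction alone, 31 were higher and 16 lower in the Brg1LKO livers, and 46.1% of all genes tested were higher. Without the 9 Ugt1a entries, which share exons, 22 were higher and 16 lower, with a median log2 fold change of 0.07. The median log2 fold change was 0.10 over these genes and -0.02 over all genes tested. By family the median was 0.11 in 20 UGT genes, 0.17 in 6 SULT genes, 0.01 in 19 GST genes and 0.06 in 2 MGST genes, where the GST and MGST medians were -0.017 and -0.072 under quantile normalization. Without WT replicate 1 the median over the 47 was -0.30, and without WT replicate 2 it was 0.44. Both Brg1LKO livers lay on the same side of both WT livers for 5 of the 47 genes, and this held for 20.7% of all genes tested.

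**Figure D1:**
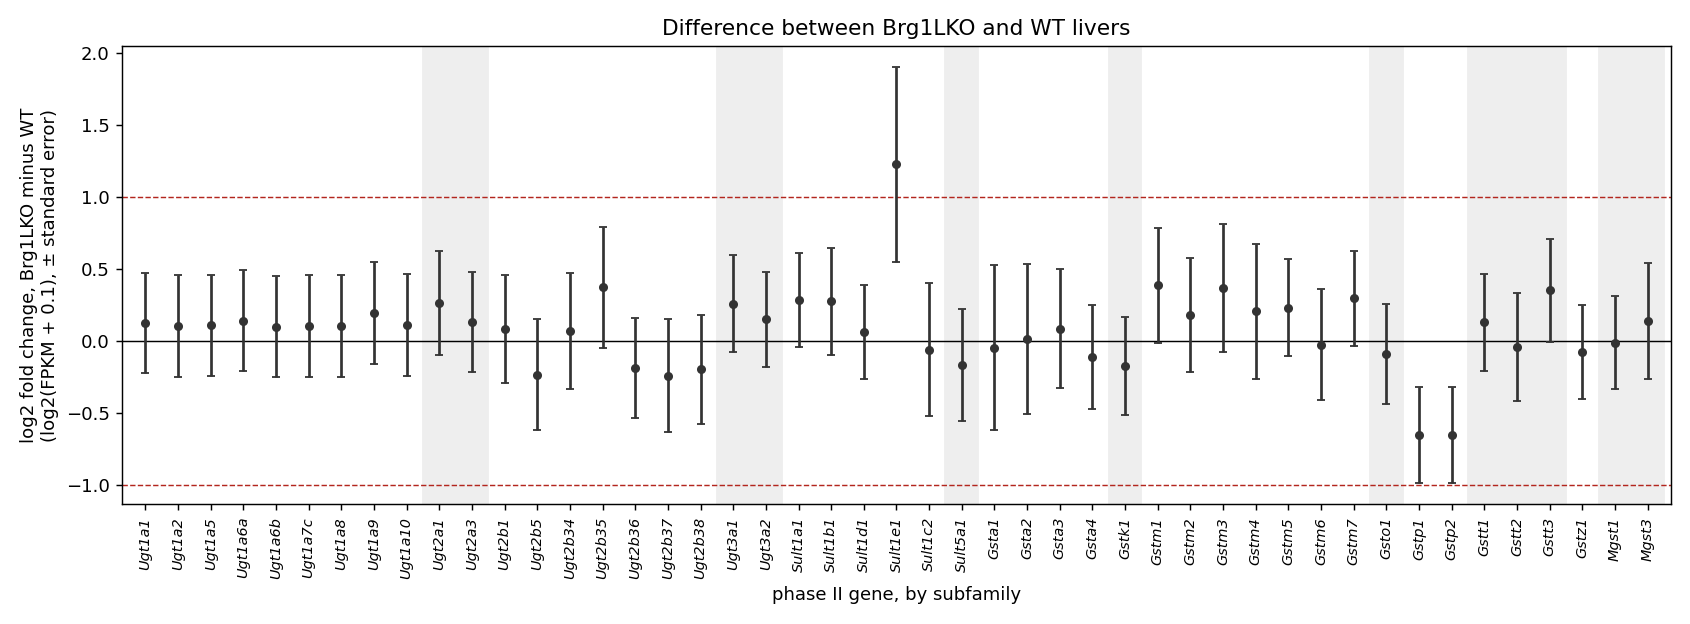
Difference between Brg1LKO and WT livers for 47 phase II genes. Each point is the log2 fold change of log2(FPKM + 0.1), Brg1LKO minus WT, with its standard error from limma. Genes are grouped by subfamily (shaded bands), and dashed lines mark a 2-fold change. Only Sult1e1, at 1.22, lies beyond them.

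The 2 WT livers themselves lay far apart for these genes. WT replicate 1 had the lowest of the 4 values for 33 of 47 genes (31.5% of all genes tested), and WT replicate 2 had the highest for 32 (42.1% of all genes tested). WT replicate 2 was above WT replicate 1 for 41 of 47, and for 80.3% of all genes tested. The median log2 difference of WT replicate 2 over WT replicate 1 was 0.80, against 0.27 over all genes tested. The 2 WT livers differed by more than 2-fold for 14 of 47 genes, a distance seen in 3.59% of all genes tested. In 39 of 47 the gap between the WT livers was wider than the difference between the group means (67.8% of all genes tested). The median log2 difference of Brg1LKO replicate 2 from replicate 1 was -0.35, and over all genes tested it was 0.30. Without the Ugt1a entries WT replicate 1 was lowest for 24 of 38 genes and WT replicate 2 highest for 23. Summed over those 38 genes, the FPKM were 3755 and 6214 in WT and 5200.3 and 3741 in the Brg1LKO livers, so the groups overlapped in the total as well. What makes the 2 WT livers differ was not tested.

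**Figure D2:**
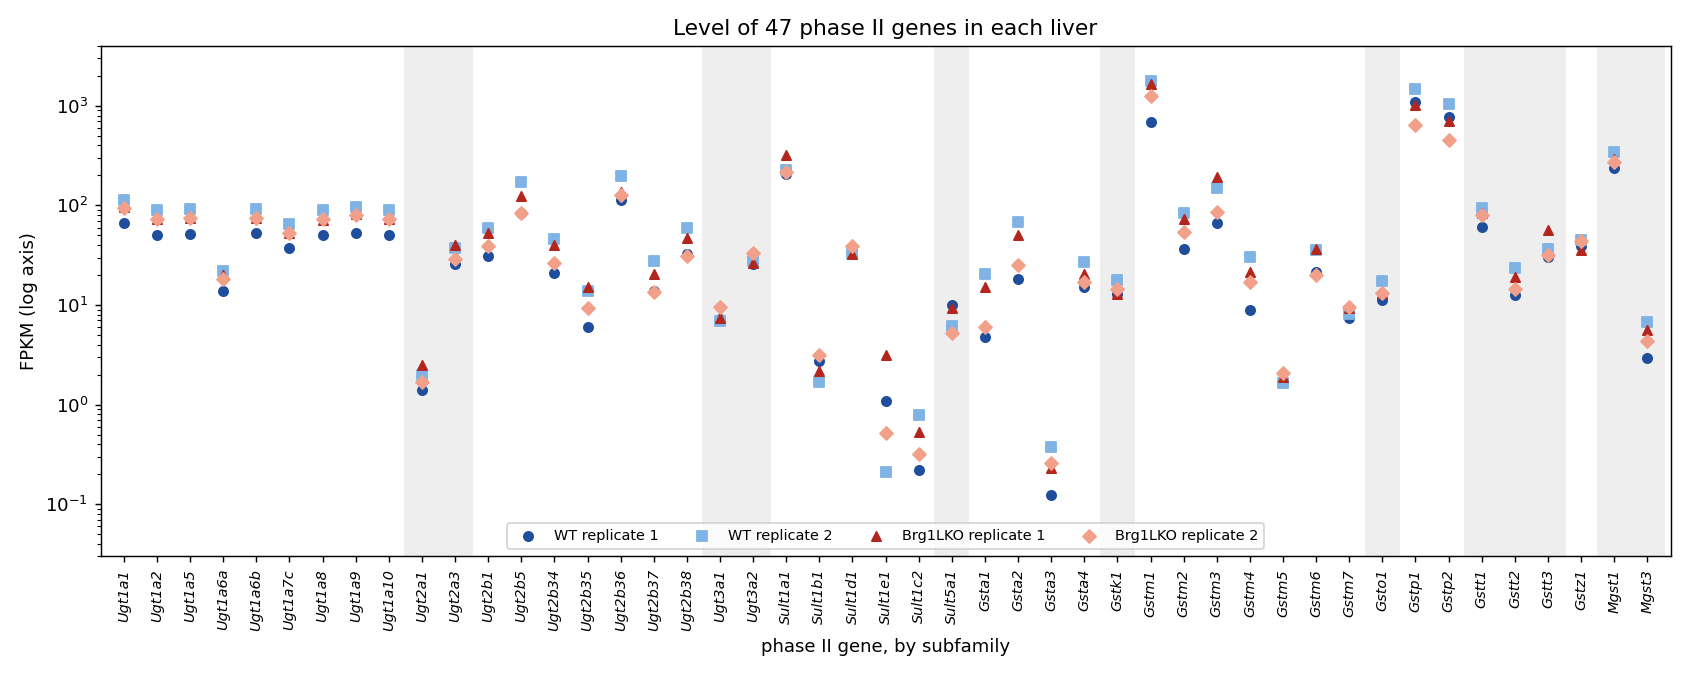
FPKM of 47 phase II genes in each of the 4 livers, on a log axis, ordered by subfamily (shaded bands). WT replicate 1 (dark blue circles) is lowest for 33 genes and WT replicate 2 (light blue squares) highest for 32, and for 25 genes both hold, with the Brg1LKO livers (red) between them.

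**Figure D3:**
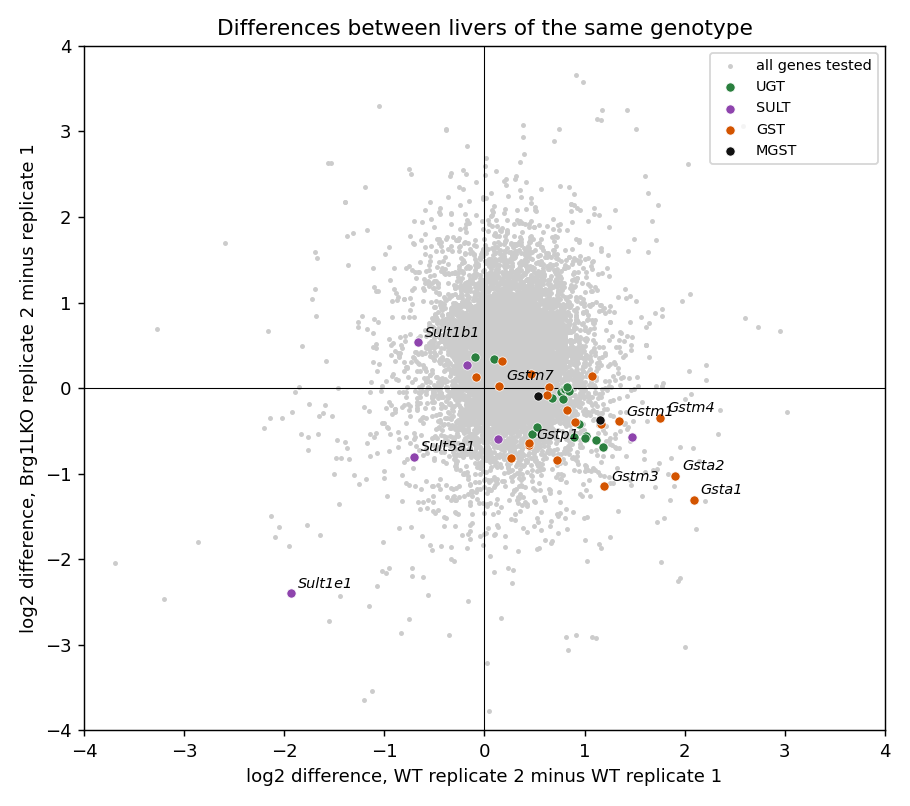
Differences between livers of one genotype, on the log2(FPKM + 0.1) scale, for all genes tested (grey) and phase II genes (colored by family). The x axis is WT replicate 2 minus WT replicate 1, and the y axis is Brg1LKO replicate 2 minus replicate 1. Of the phase II genes 41 lie to the right of 0 and 33 below 0, with medians of 0.80 and -0.35, and Sult1e1 lies to the lower left. The axes leave out 7 of the genes tested.

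The UGT1A enzymes come from a single locus on chromosome 1 (chr1:88055411-88220002 across the entries here), in which each gene has its own first exon and all share the later exons. Ugt1a1 is the enzyme that conjugates bilirubin. Its level was 66.6 and 113 FPKM in WT and 96.4 and 93.3 FPKM in the Brg1LKO livers, so the Brg1LKO livers lay inside the WT range (log2 fold change 0.13 ± 0.35 (SE), adjusted p = 1.0 by limma). All 9 Ugt1a entries had the same order, with WT replicate 1 lowest and WT replicate 2 highest, and their log2 fold changes ran only from 0.10 to 0.19. These are not 9 measurements. The transcripts of 8 entries contain the same 1311 bases of shared exons, 39.7% to 59.9% of their length. Ugt1a8, Ugt1a2 and Ugt1a10 had nearly the same estimated reads (9124, 9134 and 9142 in WT replicate 1), and Ugt1a1 had the most (11984). Whether reads of the shared exons are counted to each entry was not tested. The other entry, Ugt1a6a, stands under a transcript with a retained intron.

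The reads that belong to the first exons were estimated by subtraction, which assumes that reads of the shared exons count in full to each entry. The lowest of the 8, Ugt1a8, was taken as the shared part and subtracted from each of the others. This was devised after the values were seen, and is given without a test. Ugt1a1 had most of its own, with 2860 and 4230 reads in WT and 4200 and 3319 reads in Brg1LKO livers. Scaled to library size (reads per 1000000, RPM) this came to 44.1 ± 12.4 in WT and 49.7 ± 5.66 in Brg1LKO livers (SD, n = 2 each), and the groups overlapped.

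Ugt1a9, whose human relatives conjugate phenols, gave another picture. Its first-exon reads were 274 and 751 in WT and 1495 and 1054 in the Brg1LKO livers. Both Brg1LKO livers were above both WT livers, as for 10.7% of all genes tested. The means were 6.39 ± 4.25 RPM in WT and 16.8 ± 3.26 RPM in Brg1LKO livers (SD, n = 2 each), a ratio of 2.63. Leaving out WT replicate 2 gave a ratio of 4.97, and leaving out WT replicate 1 gave 1.79. The deposited FPKM of the whole Ugt1a9 entry, shared exons included, overlapped between the groups: 53.0 and 95.4 FPKM in WT and 82.1 and 80.5 FPKM in Brg1LKO livers (log2 fold change 0.19 ± 0.35 (SE)).

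Of the remaining first exons, Ugt1a10 had 18 and 64 reads in WT and 111 and 96 reads in the Brg1LKO livers, a ratio of 2.68 in RPM. Both Brg1LKO livers were again above both WT livers, as for 10.7% of all genes tested, and leaving out WT replicate 1 gave a ratio of 1.71, leaving out WT replicate 2 one of 6.17. Its promoter also holds the HNF1 core, at -100 and -71. For Ugt1a6b the reads were 839 and 1159 in WT and 1043 and 812 in Brg1LKO livers, a ratio of 0.986, and for Ugt1a5 they were 166 and 196 against 229 and 178, a ratio of 1.19. The Ugt1a7c entry overlaps the Ugt1a6b entry. By the same subtraction its reads were 860 and 1318 in WT and 1164 and 942 in Brg1LKO livers, a ratio of 1.03. How many of these reads are also counted to Ugt1a6b was not tested. Ugt1a2 had 6 to 10 reads of its own in every liver.

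**Figure D4:**
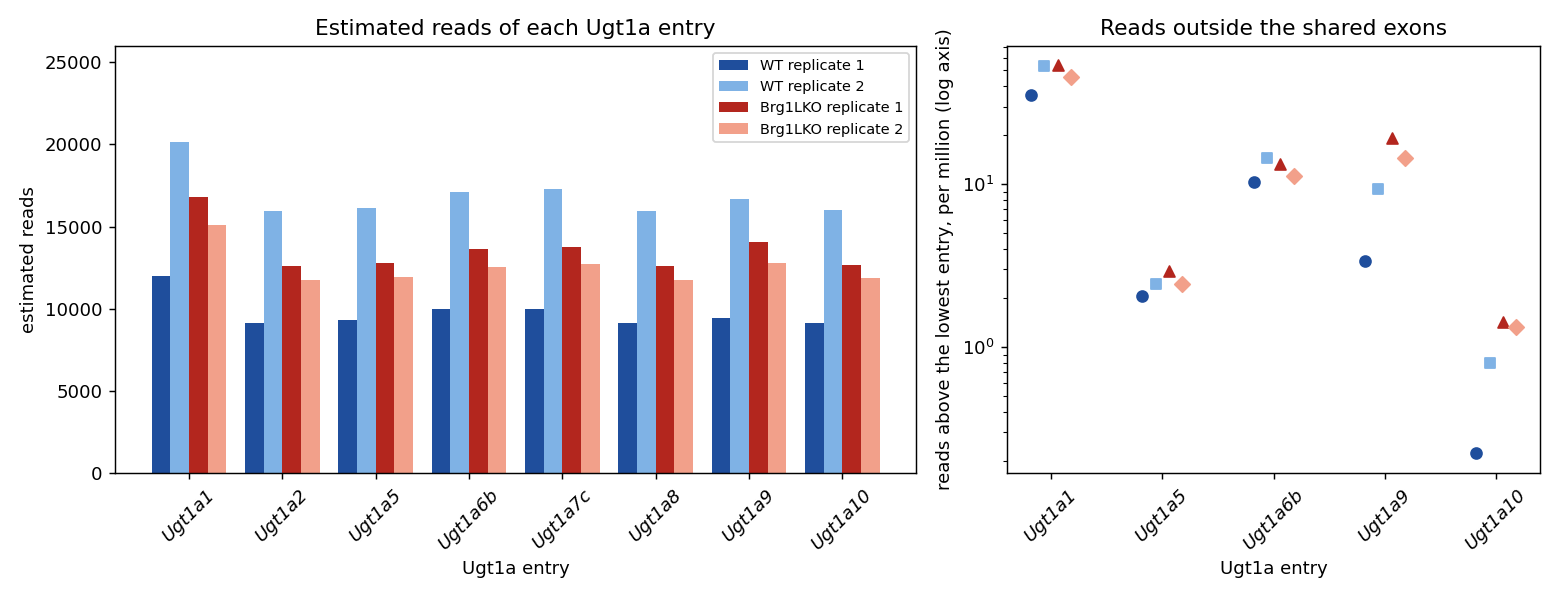
Reads of the Ugt1a locus. Left, estimated reads of 8 entries in each liver (bars), with the shared exons included in each entry. Right, reads above the lowest entry in RPM, on a log axis, 1 point per liver. Ugt1a9 and Ugt1a10 are higher in both Brg1LKO livers than in both WT livers, while Ugt1a1 and Ugt1a6b overlap.

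The Ugt2 genes on chromosome 5 encode enzymes for steroids, bile acids and drugs. Ugt2b36 was the most abundant, at 114 and 198 FPKM in WT and 138 and 126 FPKM in the Brg1LKO livers. The Brg1LKO values lay inside the WT range (log2 fold change -0.19 ± 0.35 (SE)). Ugt2b35 was at 6.05 and 13.9 FPKM in WT and at 15.2 and 9.36 FPKM in Brg1LKO livers, with the highest log2 fold change of the subfamily (0.37 ± 0.42 (SE)) and overlapping groups. The 9 Ugt2 genes split in direction, 5 higher and 4 lower. All 9 were higher in WT replicate 2 than in WT replicate 1, and all 9 were lower in Brg1LKO replicate 2 than in replicate 1. Ugt2a3, the most abundant Ugt2a gene, followed this order with 25.9 and 37.3 FPKM in WT and 39.8 and 28.9 FPKM in Brg1LKO livers.

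The Ugt3 enzymes on chromosome 15 use sugars other than glucuronic acid, and their WT livers lay close together. Ugt3a2 was at 25.7 and 27.5 FPKM in WT and at 26.3 and 33.2 FPKM in Brg1LKO livers (log2 fold change 0.15 ± 0.33 (SE)). Ugt3a1 was at 7.32 and 6.85 FPKM in WT and at 7.47 and 9.65 FPKM in Brg1LKO livers. Both Brg1LKO livers were above both WT livers for Ugt3a1, the nearer by 0.15 FPKM, and the difference did not pass the test (log2 fold change 0.26 ± 0.34 (SE)).

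Among the sulfotransferases, Sult1e1 had the largest difference between genotypes and the widest error. It encodes estrogen sulfotransferase, which inactivates estrogens and is known to vary with the metabolic state of the liver. Its level was 1.08 and 0.209 FPKM in WT and 3.14 and 0.514 FPKM in the Brg1LKO livers. The first replicate was the higher one in both genotypes, and the second Brg1LKO liver lay below the first WT liver. The log2 fold change of 1.22 ± 0.68 (SE) did not pass the test (adjusted p = 1.0 by limma), and the unadjusted p was 0.092. Each liver moved its size: it was 2.19 with WT replicate 1 left out, 0.26 without WT replicate 2, 0.03 without Brg1LKO replicate 1 and 2.42 without Brg1LKO replicate 2. It passed the threshold without Brg1LKO replicate 2, without WT replicate 1 and when genes needed a mean of 1 FPKM. The gene lies on chromosome 5 (chr5:87575969-87591594) beside Sult1d1 and Sult1b1, for which Brg1LKO replicate 2 was the higher of the Brg1LKO livers.

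Sult1a1, the phenol sulfotransferase, was the most abundant SULT gene by far, at 207 and 227 FPKM in WT and 324 and 215 FPKM in the Brg1LKO livers. Only Brg1LKO replicate 1 stood above the WT range (log2 fold change 0.28 ± 0.33 (SE)). Sult1d1, known for catecholamines, stayed between 32.4 and 39.5 FPKM in all 4 livers. Sult1b1, known for thyroid hormone, was at 2.72 and 1.68 FPKM in WT and at 2.15 and 3.16 FPKM in Brg1LKO livers. Sult5a1 was higher in the first replicate of each genotype, at 10.1 and 6.14 FPKM in WT and 9.28 and 5.27 FPKM in Brg1LKO livers. WT replicate 2 was the highest liver for 1 of the 6 SULT genes tested, Sult1c2.

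The hydroxysteroid sulfotransferases of the Sult2a cluster on chromosome 7, known to be female-predominant in mouse liver, were at the limit of detection in these males. Sult2a7 had the most reads, an estimated 2 and 6 in WT and 6 and 8 in the Brg1LKO livers, which is 0.028 and 0.084 FPKM against 0.086 and 0.123 FPKM. Sult2a1, Sult2a2, Sult2a4 and Sult2a6 had at most 3 reads in any liver. At this depth a difference of the Sult2a genes was not detectable. Sult4a1, a gene of the brain, had 2 reads in WT replicate 2 and 0 in the other livers, and Sult6b1 had 2 reads in that liver and 4 in Brg1LKO replicate 2. Sult2b1, the cholesterol sulfotransferase, was at 0 and 0.040 FPKM in WT and at 0.072 and 0.011 FPKM in Brg1LKO livers. None of these was tested.

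Gstp1 and Gstp2 had the lowest log2 fold changes of the phase II genes. They encode the pi class GSTs and are known to be higher in male than in female mouse liver. Gstp1 (chr19:4035407-4037985) was at 1082 and 1474 FPKM in WT and at 1010 and 638 FPKM in the Brg1LKO livers. Gstp2 (chr19:4040285-4042263) was at 771 and 1049 FPKM in WT and at 713 and 458 FPKM in the Brg1LKO livers. Both Brg1LKO livers were below both WT livers for each gene, as for 10% of all genes tested, but the nearest livers of the groups, WT replicate 1 and Brg1LKO replicate 1, were close. The mean of the Brg1LKO livers was 64.5% of WT for Gstp1 and 64.3% for Gstp2. The log2 fold change was -0.65 ± 0.33 (SE) for each, with an unadjusted p of 0.0709 by limma. Under quantile normalization it was -0.83 for each, with unadjusted p-values of 0.0213 for Gstp1 and 0.0283 for Gstp2, and without WT replicate 1 it was -0.88 for each, with 0.0262 and 0.0274. Both stayed short of 2-fold. The log2 fold change ran from -0.98 to -0.32 for Gstp1 when each liver was left out in turn. Brg1LKO replicate 2, the lower liver for both genes, also had the higher summed macrophage markers (139 FPKM), whose part in the result was not tested.

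The 2 Gstp genes are not separate evidence. Of all 100-base windows of the Gstp1 transcript, 52.8% occur unchanged in Gstp2, and 54.6% the other way. The estimated reads of Gstp2 were 68.5% to 69.7% of those of Gstp1 in every liver, so the levels of the pair kept a fixed ratio. Male-biased genes outside the families, a list of 14 tested, had a median log2 fold change of -0.19 with 0 past the threshold. Female-biased genes had a median of -0.19, with 1 of 16 lower past it (0.543% of all genes tested) and 0 higher. The lower gene, Cyp2b9, also stands in the list of CAR and PXR targets below. Both Brg1LKO livers were below both WT livers for 7 of the 16 female-biased genes and 2 of the 14 male-biased genes. This held for 10% of all genes tested. Both were above both WT livers for 0 and 1 of these genes. The 7 female-biased genes that were below include Cyp3a41a, Cyp3a41b, Cyp3a44, Cyp3a16, Cyp2b9 and Cyp2b13, so they are not 7 separate measurements. Cyp3a41a was at 49.8 and 69.9 FPKM in WT and Cyp3a41b at 48.9 and 68.7 FPKM. Cyp2b13, like Cyp2b9, also stands in the list of CAR and PXR targets.

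The mu class cluster on chromosome 3 held the phase II gene with the highest mean over the 4 livers, although Gstp1 was above it in WT replicate 1. This gene, Gstm1, was at 694 and 1766 FPKM in WT and at 1655 and 1264 FPKM in the Brg1LKO livers. WT replicate 1 stood apart, and the other 3 livers lay within 1264 to 1766 FPKM (log2 fold change 0.39 ± 0.40 (SE)). Gstm4 had the same order, at 8.94 and 30.3 FPKM in WT and 21.4 and 16.9 FPKM in Brg1LKO livers, and Gstm2 likewise. Without WT replicate 2, Gstm1 and Gstm4 were the 2 phase II genes past the threshold. Gstm3 was at 66.0 and 151 FPKM in WT and at 192 and 86.6 FPKM in Brg1LKO livers, with both genotypes spread more than 2-fold. Gstm5 and Gstm7 varied far less. Gstm7 was at 7.33 and 8.14 FPKM in WT and at 9.42 and 9.59 FPKM in Brg1LKO livers, without overlap, and Gstm5 was at 1.75 and 1.64 against 1.91 and 2.099 FPKM. Their log2 fold changes of 0.30 and 0.23 did not pass the test, and the Gstm5 entry stands under a transcript annotated for nonsense-mediated decay.

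Gsta1 and Gsta2 of the alpha class, on chromosome 9, had the widest gap between the WT livers among the GST genes. Gsta2 was at 18.2 and 68.5 FPKM in WT and at 50.8 and 25.0 FPKM in the Brg1LKO livers. Gsta1 was at 4.73 and 20.5 FPKM in WT and at 15.1 and 6.03 FPKM in Brg1LKO livers. WT replicate 2 was 3.75-fold above WT replicate 1 for Gsta2 and 4.33-fold for Gsta1, so the log2 fold changes between genotypes, 0.01 ± 0.52 and -0.05 ± 0.57 (SE), have the widest errors of the GST genes. Their transcripts share part of their sequence, 23.8% of the windows of Gsta1 and 35.0% of those of Gsta2 with other entries. Gsta4, which conjugates the lipid aldehyde 4-hydroxynonenal, was at 15.1 and 26.8 FPKM in WT and at 20.3 and 17.0 FPKM in Brg1LKO livers, and shared no window. The Gsta3 entry, at 0.124 to 0.372 FPKM, stands under a retained-intron transcript, so the level of spliced Gsta3 was not measured by it.

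For the theta, zeta, kappa and omega classes the 2 WT livers differed by less than 2-fold. Gstt1 of the theta class was at 60.5 and 93.5 FPKM in WT and at 84.5 and 80.1 FPKM in Brg1LKO livers. Gstt3 was at 30.4 and 36.4 FPKM in WT and at 56.3 and 32.0 FPKM in Brg1LKO livers, where only replicate 1 stood above the WT range. The Brg1LKO values of Gstt1 lay inside the WT range. Gstz1, which also degrades tyrosine as maleylacetoacetate isomerase, was at 39.6 and 44.6 FPKM in WT and at 35.7 and 44.5 FPKM in Brg1LKO livers. Gstk1, the kappa class enzyme of mitochondria and peroxisomes, was at 13.03 and 17.98 FPKM in WT and at 12.8 and 14.3 FPKM in Brg1LKO livers. Gsto1 of the omega class was at 11.2 and 17.5 FPKM in WT and at 13.1 and 13.2 FPKM in Brg1LKO livers. Their log2 fold changes ran from -0.18 for Gstk1 to 0.35 for Gstt3. Gsto2 had an estimated 5 reads in Brg1LKO replicate 2 and 0 elsewhere, and Gstt4 had 2 reads in WT replicate 1 and 0 elsewhere.

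The membrane-bound Mgst1 was the most abundant gene outside the soluble GSTs. It was at 235 and 341 FPKM in WT and at 290 and 273 FPKM in the Brg1LKO livers, both inside the WT range, and its log2 fold change was -0.01 ± 0.32 (SE). Mgst3 repeated this order at a lower level, with 2.95 and 6.67 FPKM in WT and 5.59 and 4.31 FPKM in Brg1LKO livers. Mgst2, known for leukotriene synthesis, was listed under a retained-intron transcript with an estimated 3 to 13 reads.

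The genes that supply and clear conjugates were read from the same fit. Of 4 genes of UDP-glucuronic acid supply, 0 passed the threshold in either direction (median log2 fold change 0.21). Ugp2, the most abundant, was at 30.9 and 57.7 FPKM in WT and at 64.1 and 44.6 FPKM in Brg1LKO livers, and Ugdh, which makes UDP-glucuronic acid, was at 12.1 and 31.0 FPKM in WT and at 19.98 and 16.5 FPKM in Brg1LKO livers. Both Brg1LKO livers lay inside the WT range for Ugdh. Of 5 genes of PAPS supply, 6 of glutathione supply, 11 tested of glutathione conjugate processing, 5 of conjugate removal and 5 of conjugate export, 0 passed. Median log2 fold changes of these 5 lists lay between -0.18 and 0.06. Gclc, the catalytic subunit of the rate-limiting enzyme of glutathione synthesis, was at 8.83 and 26.5 FPKM in WT and at 14.7 and 13.1 FPKM in Brg1LKO livers, again with the Brg1LKO livers inside the WT range. Abcc3, an exporter of glucuronides into blood, was at 17.8 and 33.0 FPKM in WT and at 19.9 and 18.8 FPKM in Brg1LKO livers.

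Among 18 other phase II genes tested, such as methyltransferases and acyltransferases, 0 passed and the median log2 fold change was 0.01. Gnmt, glycine N-methyltransferase, was the most abundant, at 389 and 590.4 FPKM in WT and at 639 and 512 FPKM in Brg1LKO livers. Nnmt, nicotinamide N-methyltransferase, had the largest difference of that list and the same order of livers as Sult1e1, with 104 and 11.2 FPKM in WT and 229 and 41.5 FPKM in Brg1LKO livers (log2 fold change 1.51 ± 0.83 (SE)).

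The sensors and their targets outside the families were compared in the same way. Of 16 sensor genes, 0 passed, and Nfe2l2, the gene of NRF2, was at 5.92 and 9.43 FPKM in WT and at 5.86 and 7.15 FPKM in Brg1LKO livers. The lowest log2 fold change was that of Nr1i3, the gene of CAR (-0.67 ± 0.48 (SE)). It was at 16.0 and 37.3 FPKM in WT and at 9.37 and 25.0 FPKM in Brg1LKO livers, with overlapping groups. Ppara had the highest (0.71 ± 0.35 (SE)). The groups did not overlap for 5 of the 16 sensors, and for 20.7% of all genes tested. Of 14 NRF2 targets, 0 passed (median log2 fold change 0.02). WT replicate 1 was lowest for 10 of these 14 and WT replicate 2 highest for 9, with a median log2 difference between the WT livers of 0.87. The same median was 0.80 for the phase II genes, 0.81 over the AHR targets tested and 0.89 over the conjugate export genes. It was 0.72 over UDP-glucuronic acid supply, 0.68 over the female-biased genes and 0.63 over the pericentral genes. Lower medians were found for the CAR and PXR targets (0.55), glutathione supply (0.49), glutathione conjugate processing (0.47) and the male-biased genes (0.45). The other phase II genes (0.43), conjugate removal (0.37), the sensors (0.32), PAPS supply (0.22) and the periportal genes (0.07) were lower still. The lists are not separate, since Ugdh and Nqo1 stand in the NRF2 list and in others. Whether the gap goes with NRF2 was not tested. Of 5 AHR targets tested, 0 passed, and Cyp1a2 was at 119 and 230.1 FPKM in WT and at 198 and 123 FPKM in Brg1LKO livers. Of 15 CAR and PXR targets, 2 were lower past the threshold (0.543% of all genes tested) and 0 higher. The median log2 fold change of the list was -0.23. By direction alone 12 of the 15 were lower and 3 higher, and 46.1% of all genes tested were higher. Both Brg1LKO livers were below both WT livers for 4 of the 15, against 10% of all genes tested. The 4 were Cyp2b9, Cyp2b10, Cyp2b13 and Cyp3a11, so related genes are counted more than once here as well. Those past the threshold were Cyp2b9, at 0.665 and 1.09 FPKM in WT and 0.314 and 0.389 FPKM in Brg1LKO livers, and Ces2c, at 2.26 and 5.17 FPKM in WT and 2.77 and 0.685 FPKM in Brg1LKO livers. The groups overlapped for Ces2c. Lists of pericentral and periportal genes, which mark the position of hepatocytes in the lobule, had medians of -0.09 and 0.29 with 0 of 14 and 0 of 13 past the threshold.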

How the data were processed

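RNA-seq of 2 WT and 2 Brg1LKO livers was used as deposited, and groups and replicate numbers came from the labels. The authors deposited FPKM per Ensembl transcript identifier and symbol, with no stated normalization between libraries. According to the study's methods, reads were trimmed with Trimmomatic, mapped to GRCm38 with HISAT2 and turned into FPKM with Cufflinks, whereas the submitters' processing notes name HISAT2 2.0.4 and StringTie 2.1.4. The methods describe TruSeq libraries and the labels BGIseq libraries. The read counts tested by the authors were not used here.

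Entries with a mean of at least 0.1 FPKM (12346 of 22103) were transformed to log2(FPKM + 0.1) and compared in R 4.3.3 with limma 3.58.1, using lmFit and a trended eBayes, and p-values were adjusted over all of them by the Benjamini-Hochberg method. The threshold, taken from the study's methods, was an unadjusted p under 0.05 and a change over 2-fold. The test recovered large known changes in simulated data that gave every gene the same spread. That setting does not show its power for smaller changes or for genes with a wide gap between livers, such as many phase II genes. Lengths and coordinates came from GENCODE M21 for 98.6% of entries, and from RefSeq for Sult1a1 and Sult2b1. Of the 58 members, 52 stand under coding transcripts, 4 under transcripts without a complete coding sequence and 2 were not matched to M21. Symbols that had turned into dates (27) were restored. Library totals were estimated from low values on transcripts of at least 2000 bases, of which 88.2% to 89.7% lay within 0.1 of a whole read.

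Named members are those with an absolute log2 fold change of at least 0.5, the most abundant of each subfamily and the next largest changes up to 20 members. Smarca4 and the list genes past the threshold are named too. The most abundant gene of a list is named for some lists only, and not for PAPS supply, for instance. Further members and list genes are named for completeness, picked with their values in view. The members and lists were chosen with earlier results of these data known. Alternatives were other pseudocounts, filters and scalings, eBayes without trend, a replicate block, and each liver left out in turn.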

Additional observations from a re-analysis of the deposited data

How the results depend on the processing

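The count of phase II genes past the threshold was 0 with all 4 livers. It was 1 when genes needed a mean of 1 FPKM and when a replicate block was fitted, in both cases Sult1e1 at a log2 fold change of 1.22. Leaving out each liver gave 0 to 2. Over all genes, 121 passed. A pseudocount of 1 left 18, no filter on low values 80, a minimum mean of 1 FPKM 68, and the count was 231 without WT replicate 1, 78 without WT replicate 2, 552 without Brg1LKO replicate 1 and 450 without Brg1LKO replicate 2. A liver left alone in its group is assumed to vary like the others. The Smarca4 log2 fold change was -0.85 with a pseudocount of 1, short of 2-fold, and -1.56 to -1.44 with a liver left out. The direction turned for Gsta2 under quantile normalization (-0.017) and for Mgst1 under median-ratio rescaling (0.023). The cause was not tested. With a liver left out, a setting chosen after the data were seen, the ratio of first-exon reads ran from 1.79 to 4.97 for Ugt1a9 and from 1.71 to 6.17 for Ugt1a10. The other baselines for the shared Ugt1a reads, tried for Ugt1a9 alone, differed from the one used by 6 to 10 reads. They gave a Ugt1a9 ratio of 2.66 against 2.63. No other baseline was tried for Ugt1a10, which had only 18 reads above the lowest entry in WT replicate 1, so its ratio is less certain.

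With a liver left out, the median over all members ran from -0.30 to 0.44, and over UGT genes from -0.30 to 0.50, GST genes from -0.41 to 0.41, MGST genes from -0.36 to 0.48 and SULT genes from 0.01 to 0.23. Ranges of the log2 fold change of single genes were -0.94 to 0.96 (Gsta2), -0.41 to 0.055 (Gstk1), -0.29 to 1.06 (Gstm1), -0.41 to 0.23 (Gsto1), -0.98 to -0.32 (Gstp1), -0.97 to -0.34 (Gstp2), -0.18 to 0.44 (Gstt1), -0.23 to 0.082 (Gstz1), -0.28 to 0.26 (Mgst1), -0.014 to 0.58 (Sult1a1), 0.025 to 2.42 (Sult1e1), -0.57 to 0.23 (Sult5a1), -0.26 to 0.51 (Ugt1a1), -0.13 to 0.39 (Ugt2a3), -0.22 to 0.97 (Ugt2b35), -0.59 to 0.20 (Ugt2b36) and -0.020 to 0.32 (Ugt3a2).

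The labels do not say whether the replicate numbers pair the livers. Deviations from the group means of same-numbered livers had a correlation of 0.03 over 12346 genes, which cannot decide this with so few livers. Over all genes tested, the median log2 difference of replicate 2 over replicate 1 was 0.27 in WT and 0.30 in Brg1LKO livers. The factors of the median-ratio rescaling were 0.91 (WT) and 0.88 (Brg1LKO) for replicate 1 and 1.13 and 1.11 for replicate 2. With the replicate number as a block, 108 genes passed the threshold, and the unadjusted p of Sult1e1 by limma was 0.00529. It changed no other call among the phase II genes. Depth set the limit for the lowest genes, such as those of the Sult2a cluster.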
